A study of Mus musculus with 12 samples.

Results

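Intron peaks without a locus code are Argonaute (Ago) crosslinking peaks that the submitters placed in an intron and gave no seed match for the microRNAs of the miR-144/451 locus. They were taken as all rows of the deposited peak table with the feature class intron and a code of 0 for miR-451a, miR-144-3p and miR-144-5p. A code of 0 leaves out full seed matches, offset 6-mers and seeds with a single mismatch. The rule selected 7195 of the 12378 intron peaks and of the 106382 peaks in all, and these lie in 3481 genes. The other 5183 intron peaks carry a code for at least 1 of the 3 microRNAs. No read count entered the choice. The submitters' order of preference put UTR, coding and flanking classes ahead of introns, so an intron peak is one that overlapped none of these in their annotation.

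The peaks were measured in 12 HITS-CLIP libraries from fetal liver cells of C57BL/6J embryos. The KO Ago group (libraries 3, 12 and 13) held cells of embryos with the genotype miR-144/451-/-, which lack the locus, and the WT Ago group (libraries 1, 9 and 10) cells of wild-type embryos, both precipitated with an Ago antibody. The KO IgG group (libraries 4, 8 and 14) and the WT IgG group (libraries 2, 6 and 11) held control IgG precipitates of the same genotypes. The allele, the embryonic day and whether any libraries came from 1 embryo or pool are not stated in the labels, so p-values measure the spread between libraries, which may be technical in part.

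In HITS-CLIP, ultraviolet light fixes Ago to the RNA it touches, and the RNA left after nuclease digestion and precipitation is sequenced. Ago carries a microRNA whose bases 2 to 8, the seed, pair with target RNA, and most of the regulation described for it acts through 3′UTRs in the cytoplasm. Introns are normally spliced out in the nucleus, so reads in an intron can come from unspliced or intron-retaining RNA, from a transcript whose exons the annotation lacks, or from another copy of the sequence. miR-451a and miR-144 are made from 1 precursor transcript and accumulate in red cell precursors, the main cell of the fetal liver. A control IgG precipitate shows what is recovered without the Ago antibody.

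The seeds that define the absence of a code are printed here with miR-16-5p, an abundant microRNA from outside the locus whose codes are used further on. The mature sequences are those of RefSeq for GRCm38.p6, 5′ to 3′, and capitals mark the seed. 
miR-451a: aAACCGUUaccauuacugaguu
miR-144-3p: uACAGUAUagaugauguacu
miR-144-5p: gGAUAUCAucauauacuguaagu
miR-16-5p: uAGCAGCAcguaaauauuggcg
No pair of these seeds is the same. A full 7-mer match of the seed reads AACGGTT in target DNA letters for miR-451a, ATACTGT for miR-144-3p, TGATATC for miR-144-5p and TGCTGCT for miR-16-5p. The 3 locus microRNAs lie on chromosome 11 of GRCm38.p6, with miR-451a at 78073186 to 78073207, miR-144-3p at 78073047 to 78073066 and miR-144-5p at 78073010 to 78073032, all on the plus strand.

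The KO Ago libraries held 147969 to 341061 reads in peaks and the WT Ago libraries 202876 to 452157, while the KO IgG libraries held 24622 to 42916 and the WT IgG libraries 25985 to 42399. Across all peaks, those with a locus code included, erythroid genes (46 of 57 with a peak) took 2.59 to 3.01% of peak reads in KO Ago. In WT Ago they took 3.19 to 3.74%, and the ranges did not overlap. In the IgG libraries they took 2.48 to 3.63% in KO and 2.1 to 3.3% in WT, and those ranges overlapped. Hepatocyte genes (33 of 34 with a peak) took 1.79 to 3.38% in KO Ago and 0.951 to 2.78% in WT Ago, and here the ranges overlapped. Macrophage, megakaryocyte, progenitor and granulocyte genes each took 0.238% or less of any Ago library. In these bulk samples fewer cells of a type and less RNA per cell cannot be told apart, and the part of either in the results below was not tested.

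The intron peaks without a locus code were short and shallow. Their median width was 23 nt (quartiles 21 and 31), against 30 nt for 3′UTR peaks and 29 nt for coding peaks without a locus code and 21 nt for such intergenic peaks. The median peak held 9 reads over the 6 Ago libraries, the upper quartile was 14, and the deepest held 436. Of the 3481 genes, 2183 had 1 such peak and 66 had 10 or more. Gm16867 had 126, Slc25a37, the mitochondrial iron importer of red cell precursors, had 100, and Zbtb7a, a transcription factor of erythroid maturation, had 33. Of 5698 peaks whose gene had a known strand, 5697 lay on that strand, so nearly all were read in the sense of the gene. None overlapped an annotated microRNA hairpin, 3 overlapped a tRNA gene and 1 a snoRNA.

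Width went with position in the gene. The 3392 peaks wider than 23 nt lay at a median of 85.6% of the way along their gene, in genes of median length 51.6 kb, and 25.3% of them had a 3′UTR peak of the same gene within 1 kb. The 3803 peaks of 23 nt or less lay at a median of 54.1%, in genes of 116 kb, and 5.97% had such a 3′UTR peak nearby. The wide peaks thus lay nearer the 3′ ends of shorter genes than the narrow ones did. The authors' IgG ratio, their measure of IgG height over Ago height, had a median of 0.0391 in the wide peaks and 0.215 in the narrow peaks. It was above 1 in 371 of the 7195 peaks (5.16%), 276 of which were narrow, and in 46 of the 17173 3′UTR peaks without a locus code (0.268%).

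The first comparison asked whether Ago precipitates hold more or less of these peaks than IgG precipitates do. They held less. The peaks took 6.81%, 5.69% and 6.46% of peak reads in KO Ago libraries 3, 12 and 13, and 5.57%, 5.11% and 5.89% in WT Ago libraries 1, 9 and 10. They took 9.35%, 10.9% and 11.2% in KO IgG libraries 4, 8 and 14, and 8.81%, 10.2% and 10.6% in WT IgG libraries 2, 6 and 11. Every Ago library lay below every IgG library. The widest exact 95% binomial interval of an Ago library ran from 6.33 to 6.58% and that of an IgG library from 10.8 to 11.6%, which cover counting error only. The difference of the mean shares, Ago minus IgG, was -4.27 percentage points (exact two-sided permutation within genotype, p = 0.005, the smallest the 400 arrangements allow, Benjamini-Hochberg value 0.0133 over 8 tests on shares and ratios).

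Most of that gap lay in the narrow peaks. Peaks of 23 nt or less took 2.79% ± 0.833 of reads in KO Ago and 6.24% ± 0.881 in KO IgG, and 2.59% ± 0.633 in WT Ago and 6.41% ± 0.754 in WT IgG (SD, n = 3 each). The difference in share, Ago minus IgG, was -3.64 points. Wider peaks took 3.53% ± 0.265 in KO Ago and 4.24% ± 0.452 in KO IgG, and 2.93% ± 0.331 in WT Ago and 3.48% ± 0.215 in WT IgG (SD, n = 3 each). Here the difference was -0.63 points. Both differences had p = 0.005 by the same exact permutation test. The split by width was added after the data were seen. The deepest Ago libraries, KO 12 and WT 9, had the lowest narrow shares, 1.9% and 1.86%, against 2.93 to 3.55% in the other Ago libraries. The lower share in Ago was not particular to these peaks. Intergenic peaks without a locus code took 7.28 to 13.5% in KO Ago and 25.6 to 31.0% in KO IgG, and 6.77 to 11.5% in WT Ago and 23.0 to 29.9% in WT IgG. Intron peaks with a locus code took 3.66 to 4.39% in KO Ago and 5.91 to 6.99% in KO IgG, and 4.69 to 5.5% in WT Ago and 6.03 to 6.9% in WT IgG. Both classes were thus lower in every Ago library as well. The 3′UTR peaks without a locus code ran the other way and took 15.8 to 21.7% in KO Ago and 8.49 to 10.5% in KO IgG, and 12.3 to 18.4% in WT Ago and 7.99 to 10.9% in WT IgG.

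**Figure D1:**
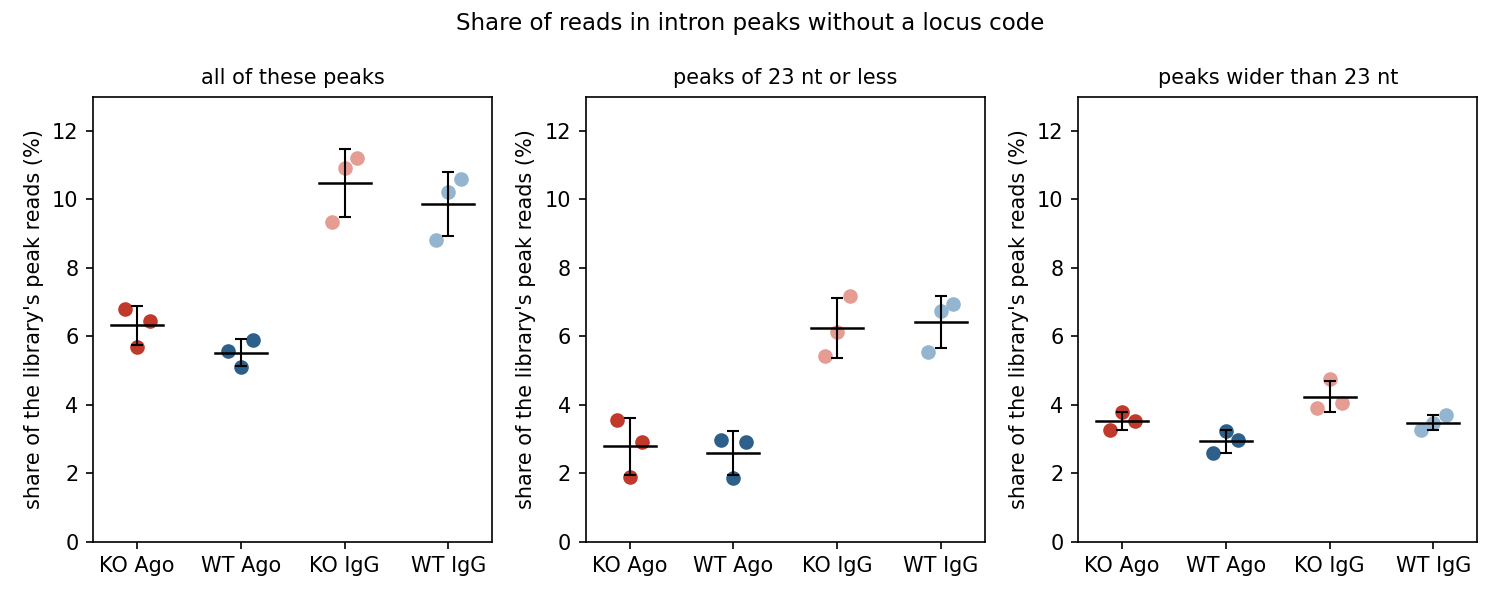
Share of each library's peak reads (%) held by intron peaks without a locus code, for all of them, for peaks of 23 nt or less and for wider peaks; points are libraries, bars are the mean and SD of 3. All Ago libraries (5.11 to 6.81%) lie below all IgG libraries (8.81 to 11.2%), and the gap is mainly in the narrow peaks.

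Peak by peak, the test on reads was edgeR's quasi-likelihood test, and a call is an adjusted p below 0.05 over all tested peaks. In KO, 63 of the peaks had enough reads for the test of Ago against IgG. Of these 14 were lower in Ago (22.2%, against 23.3% of all 645 tested peaks) and 15 were higher (23.8%, against 40.0%). Their median log2 difference was -0.86, against -0.17 for all tested peaks. In WT, 76 were tested, 52 were lower in Ago (68.4%, against 37.9% of all 894) and 8 were higher (10.5%, against 35.9%), with a median of -1.63 against -0.14. A peak with few Ago reads passes the filter on low counts only where the shallower IgG libraries hold it, as at Arih1, with 1, 1 and 0 reads in WT Ago and 6, 7 and 8 in WT IgG. Such a peak had to be lower in Ago, so these counts and medians describe the peaks that passed and say nothing of the others. With scaling by library size alone the medians of all tested peaks moved to -0.90 in KO and -0.67 in WT and the lower counts were 41 in KO and 58 in WT, so the KO count in particular rests on the scaling. The counts also moved widely when a library was left out, as the closing section gives, since the filter on low counts then passed other peaks.

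The 44 peaks tested in both genotypes gave no opposite calls. Of the 44, 11 were lower in Ago in both and 7 were higher in both. Another 2 were higher in KO with no call in WT, 18 had no call in KO and were lower in WT, and 6 had no call in either. The filter set the direction of peaks with few Ago reads in each test, and of peaks that passed through Ago alone, as Srsf1 in KO. For those a shared direction is no independent agreement. The interaction of genotype and antibody was fitted for 147 of the peaks and called none by edgeR (background 0.0% of 1364 peaks), with 5 in each direction at an unadjusted p below 0.05. A difference of Ago over IgG between genotypes was therefore not shown for any of them.

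**Figure D2:**
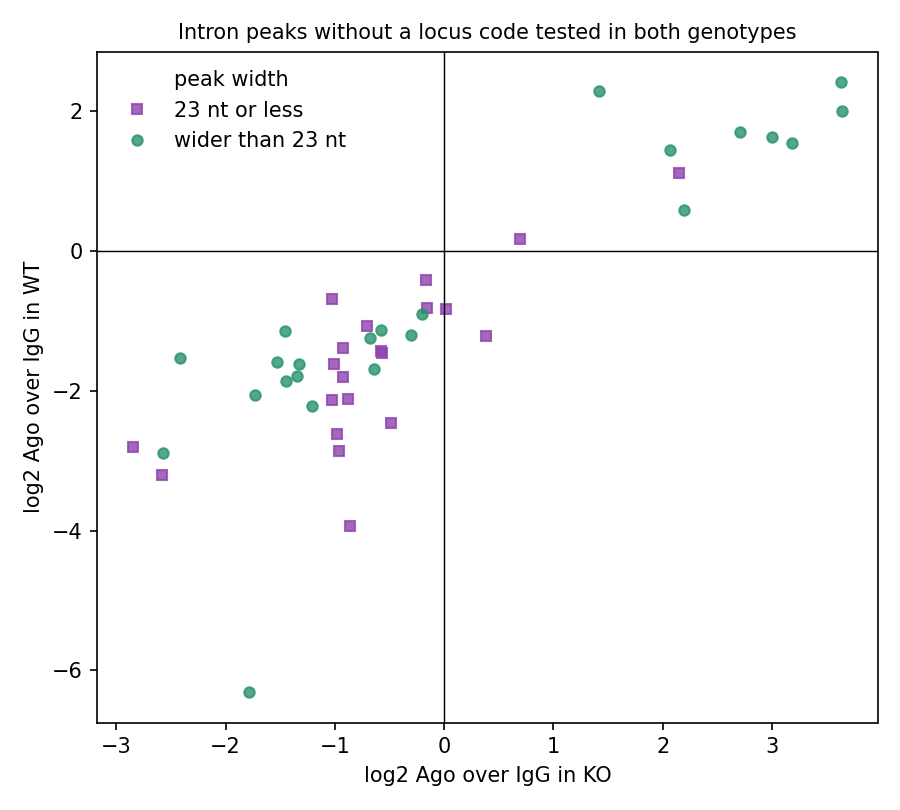
Log2 of Ago over IgG in KO (x axis) and in WT (y axis) for the 44 intron peaks without a locus code tested in both, by peak width. Peaks such as those of Srsf1 and Bsg stand at the upper right, and most peaks, narrow ones among them, lie below 0 on both axes. The filter on low counts set the direction of peaks with few Ago reads and that of Srsf1 in KO.

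Most of the peaks higher in Ago were wider than 23 nt (14 of 15 in KO and 7 of 8 in WT). Among all tested peaks, 35 of 63 in KO and 28 of 76 in WT were that wide. Of the peaks lower in Ago, 10 of 14 in KO and 18 of 52 in WT were. The 15 higher in KO had a median width of 32.0 nt and the 8 in WT 30.5 nt. A 3′UTR peak of their gene lay within 1 kb for 5 (33.3%) and 3 (37.5%) of them. That share was 15.1% of all 7195 peaks and 28.9% of the 90 tested between KO and WT Ago. The filter on low counts fixed the direction of some higher peaks too. In KO the peaks of Srsf1, Add2 and Rbm38 reached it in all Ago libraries and in no IgG library. They had to be higher in Ago, so the traits of the higher peaks describe what the filter passed. The peak of Srsf1, a splicing factor, at chr11:88049104-88049131 had 29, 36 and 16 reads in KO Ago and 4, 2 and 0 in KO IgG, and 30, 44 and 16 in WT Ago and 5, 4 and 0 in WT IgG. Ago counts were above all IgG counts, although Ago libraries are also several times deeper. Scaled for that, the peak was higher by 3.63 ± 0.61 log2 units in KO (SE, edgeR adjusted p = 0.0012) and by 2.42 ± 0.64 in WT (adjusted p = 0.0042). The peak of Bsg, the surface protein basigin, at chr10:79711818-79711851 was higher by 3.64 ± 0.62 in KO (edgeR adjusted p = 0.0012) and 2.01 ± 0.52 in WT (adjusted p = 0.0035). Add2, the adducin subunit of the red cell membrane skeleton, had a peak at chr6:86119384-86119415 with 26, 43 and 24 reads in KO Ago and 3, 1 and 0 in KO IgG, a difference of 4.37 ± 0.63 (edgeR adjusted p = 0.00075). Peaks of Rbm38, an RNA-binding splicing regulator, and Rb1cc1, an autophagy protein, were higher by 3.38 ± 0.53 and 3.53 ± 0.60 in KO. The Add2, Rbm38 and Rb1cc1 peaks were not tested in WT. There Add2 had 23, 37 and 14 reads in Ago and 2, 3 and 3 in IgG. Rbm38 had 15, 22 and 16 in WT Ago and 3, 2 and 0 in WT IgG, and Rb1cc1 had 23, 35 and 14 and 4, 2 and 0. The peak of Med13l, a Mediator subunit, was higher by 3.00 ± 0.56 in KO and 1.64 ± 0.51 in WT. The peak of Alb, the main plasma protein made by liver, at chr5:90462790-90462820 was higher by 2.07 ± 0.47 in KO (edgeR adjusted p = 0.0035), with an adjusted p of 0.052 in WT.

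Of the peaks lower in Ago, none had a 3′UTR peak of the gene within 1 kb, against 15.1% of all 7195 peaks. Their median was 17.5 reads over the 6 Ago libraries for those called in KO and 17.0 for those called in WT. As the filter set the direction of peaks with few Ago reads, the traits of the lower peaks describe what it passed. The 14 in KO had a median width of 30.0 nt and the 52 in WT 21.5 nt. Gene length did not mark them, since their genes had median lengths of 90.5 kb in KO and 179 kb in WT, while those of the peaks higher in Ago had 65.5 kb in KO and 469 kb in WT. The peak of Kcnip1, a neuronal potassium channel partner, at chr11:33754797-33754837 had 3, 4 and 2 reads in KO Ago and 22, 24 and 8 in KO IgG, and 1, 2 and 5 in WT Ago and 10, 18 and 7 in WT IgG. The raw counts are thus higher in every IgG library despite its lower depth, and the log2 difference was -2.57 ± 0.45 in KO (edgeR adjusted p = 0.0013) and -2.89 ± 0.50 in WT (adjusted p = 0.00037). The peak of Il31ra, a cytokine receptor chain, at chr13:112578646-112578675 had 4, 3 and 2 reads in KO Ago and 17, 8 and 6 in KO IgG. In WT it had 0 reads in all Ago libraries and 10, 7 and 4 in IgG, at least 62.3-fold lower in Ago per peak read with 3 reads over the group set for 0. The peak of Pola2, a subunit of the replicative primase complex, at chr19:5955393-5955413 had log2 differences of -2.58 ± 0.65 in KO and -3.21 ± 0.50 in WT. Peaks of Trpm3 and Abcc4 were among the 5 with the smallest p in KO, and peaks of Arih1, Rspo4 and Stag1 among those in WT. They held 0 to 4 reads in any Ago library and 1 to 9 in any IgG library.

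The peak with the highest level in the Ago libraries was no higher there than in IgG. This peak of Cmss1, at chr16:57391595-57391631, had 91, 70 and 60 reads in KO Ago and 125, 133 and 63 in KO IgG, and 70, 76 and 69 in WT Ago and 82, 122 and 64 in WT IgG. IgG libraries with a far lower total thus held about as many reads as the Ago libraries. It had no call in KO (-0.58 ± 0.30, edgeR adjusted p = 0.11) and was lower in Ago in WT (-1.13 ± 0.29, adjusted p = 0.0037). A second Cmss1 peak lies beside it, at chr16:57391474-57391560. It had 101 and 103 reads in KO IgG libraries 4 and 8 and 97 in WT IgG 6, against 24 in KO IgG 14, 39 in WT IgG 2 and 20 in WT IgG 11, so libraries of both IgG groups fell on both sides. The peak over the arginine tRNA gene n-TRcct1, in 1110001J03Rik, had 7, 23 and 6 reads in KO Ago and 14, 12 and 15 in KO IgG, and 7, 16 and 9 in WT Ago and 16, 8 and 16 in WT IgG.

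The genotype comparison asked which of these Ago sites depend on the deleted locus although no seed code links them to it. Few changed. Of the 7195 peaks, 90 in 74 genes had enough reads for the test of KO against WT Ago. Of these, 7 were lower in KO (7.78%, against 17.6% of all 2425 tested peaks), 1 was higher (1.11%, against 1.4%) and 82 had no call. At an unadjusted p below 0.05, 8 were lower and 9 higher. Their median log2 change was 0.29, against 0.09 for all tested peaks, and 0.45 against 0.25 with scaling by library size alone. The 106 tested intron peaks with a locus code had 31 lower (29.2%), none higher and a median of -0.16. The 456 tested 3′UTR peaks without a locus code had 36 lower (7.89%), 9 higher and a median of 0.22. Of the 90, 79 changed by less than 1 log2 unit, and the median SE was 0.38. Here too a peak could pass the filter on low counts through 1 group alone, which fixed its direction. The lower peaks of Luc7l2, Stmn1, Larp4b, Adam10 and Ubp1 reached it in the WT Ago libraries and in no KO Ago library. They had to be lower in KO, so the counts of called peaks describe the peaks that passed.

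**Figure D3:**
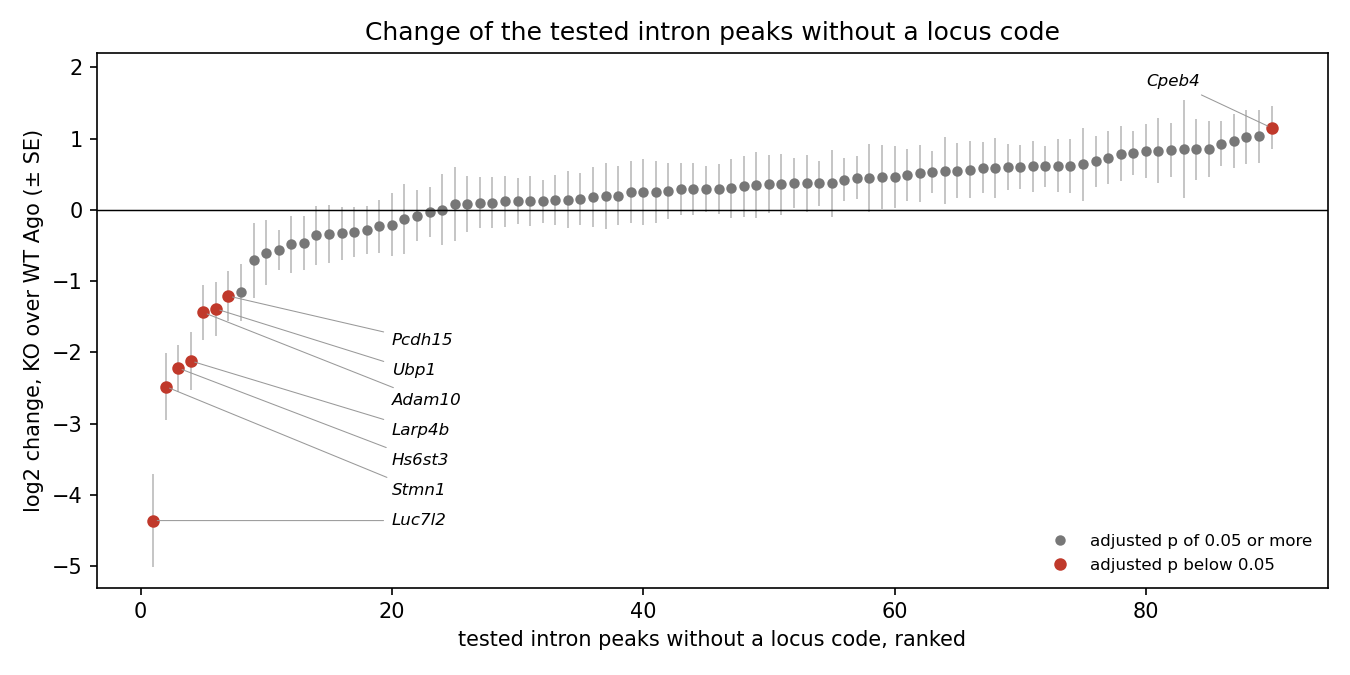
Log2 change of KO over WT Ago, with SE, for the 90 tested intron peaks without a locus code in ranked order. The 7 called lower peaks are the first at the left, from -4.36 to -1.21, followed by an uncalled Hs6st3 peak at -1.16, and the called Cpeb4 peak is the last at the right, at 1.15.

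Summed over all 7195 peaks, tested or not, the share of Ago reads was 6.32% ± 0.573 in KO and 5.52% ± 0.392 in WT (SD, n = 3 each), a difference of 0.80 points (exact two-sided permutation p = 0.2, Benjamini-Hochberg value 0.267). The ranges overlapped. Set against intron peaks with a locus code in the same library, the log2 ratio of reads was 0.63, 0.64 and 0.66 in KO Ago libraries and 0.02, 0.12 and 0.26 in WT Ago libraries. The groups did not overlap, and the difference of 0.51 log2 units had p = 0.1, the smallest that 3 against 3 libraries allow (exact two-sided permutation, Benjamini-Hochberg value 0.16). Set against 3′UTR peaks without a locus code, the log2 ratio was -1.54 ± 0.363 in KO Ago and -1.45 ± 0.359 in WT Ago (SD, n = 3 each), a difference of -0.09 with p = 0.7 by the same exact test, and its sign changed in some alternatives. In the IgG precipitates, 15 of the peaks were tested between KO and WT and none was called by edgeR (background 0.0% of 190 peaks) or DESeq2, and none had an unadjusted edgeR p below 0.05.

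The lowest ratio was that of Luc7l2, a splicing factor that works with the U1 snRNP. Its peak at chr6:38609116-38609149 had 0, 2 and 0 reads in KO Ago libraries 3, 12 and 13, and 15, 33 and 10 in WT Ago libraries 1, 9 and 10. All 6 IgG libraries had 0. Per peak read, KO was 21.1-fold lower (95% interval 5.57 to 178, counting error only), and the fitted log2 change was -4.36 ± 0.65 (SE, edgeR adjusted p = 0.00018). Without KO Ago library 12, the only KO library with reads, the fit gave -7.02 (adjusted p = 0.001), which depends on the fit's prior count, and the other alternatives gave -4.60 to -3.91. The peak lies 98.6% of the way along the gene and 224 nt from the nearest 3′UTR peak. Its neighbours had fewer reads in KO too. The 3′UTR peak at 38608501 to 38608574, which has a locus code, had 3 reads in KO Ago and 36 in WT Ago, and the uncoded intron peak at 38609321 to 38609349 had 12 and 40. The closest coded peak, 95 nt away, carries a miR-144-5p seed with a mismatch at position 4 and had 1 read in KO Ago and 11 in WT Ago.

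Of the 7 lower peaks, the one with most reads was in Hs6st3, which encodes a heparan sulfate 6-O-sulfotransferase. At chr14:119649502-119649533 it had 16, 17 and 15 reads in KO Ago and 85, 116 and 70 in WT Ago, or 456 ± 125 CPM in KO and 2070 ± 225 CPM in WT (SD, n = 3 each). The groups were far apart, and the change was -2.22 ± 0.33 (SE, edgeR adjusted p = 0.00018). These reads may belong to another gene. A 3′UTR peak of Cd24a, a surface antigen of red cell precursors, at chr10:43584136-43584167 has the same width and counts that differ from it by 3 reads of 367 in sum. A second uncoded Hs6st3 peak, at chr14:119644025-119644060, has the same 162 reads, library by library, as a coding peak of Cd24a at chr10:43579268-43579303, and it changed by -0.28 ± 0.34 (edgeR adjusted p = 0.67). For both pairs the counts cannot be assigned to either place.

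The peak of Stmn1, the microtubule-destabilising protein stathmin, also has a copy. At chr4:134473670-134473710 it had 4, 3 and 1 reads in KO Ago and 19, 28 and 9 in WT Ago, a change of -2.48 ± 0.47 (SE, edgeR adjusted p = 0.00094). All KO counts were below all WT counts, in a peak that passed the filter on low counts through WT Ago alone. An intergenic peak at chr17:70392724-70392764 has the same width and the same counts in all 12 libraries, and that copy carries a miR-144-3p seed with a mismatch at position 7. The nearest coded peak of Stmn1 itself, 78 nt away, has a 7-mer code for miR-144-3p and a miR-451a seed with a mismatch at position 6. It had 16 reads in KO Ago and 48 in WT Ago. Of the 90 tested peaks, 8 had such a partner of equal width with counts within 10%.

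Larp4b and Adam10 had a coded peak next door. The peak of Larp4b, an RNA-binding protein of the La family, at chr13:9172366-9172394 had 3, 10 and 2 reads in KO Ago and 23, 42 and 14 in WT Ago, or 118 ± 62.1 CPM in KO and 563 ± 105 CPM in WT (SD, n = 3 each). The change was -2.12 ± 0.41 (SE, edgeR adjusted p = 0.0012). An intron peak 15 nt away carries a miR-451a seed with a mismatch at position 7 and had 2 reads in KO Ago and 19 in WT Ago. The peak of Adam10, a membrane protease that sheds cell-surface proteins, at chr9:70780023-70780049 had 4, 7 and 4 reads in KO Ago and 15, 26 and 9 in WT Ago, a change of -1.44 ± 0.39 (edgeR adjusted p = 0.013). There the coded intron peak, 11 nt away with a miR-451a mismatch at position 5, had 28 reads in KO Ago and 29 in WT Ago and so did not share the drop in raw counts. Whether a read that touches both neighbours was counted in each is not stated in the deposited description.

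The other lower peaks changed less. The peak of Ubp1, a transcription factor of the grainyhead family, at chr9:113976405-113976476 had 5, 6 and 5 reads in KO Ago and 18, 22 and 11 in WT Ago, a change of -1.39 ± 0.38 (SE, edgeR adjusted p = 0.016). The peak of Pcdh15, a protocadherin of inner ear hair cells, at chr10:73202009-73202039 had 11, 14 and 10 reads in KO Ago and 39, 32 and 24 in WT Ago, a change of -1.21 ± 0.35 (adjusted p = 0.023). It lies 6.81% along its gene. The groups did not overlap in CPM for either, though for Ubp1 the filter on low counts had fixed this. The calls of Adam10, Ubp1 and Pcdh15 were lost with DESeq2 (adjusted p = 0.11, 0.11 and 0.065) and without KO Ago library 12 (0.08, 0.12 and 0.099).

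The 1 peak higher in KO was in Cpeb4, a translational regulator that binds cytoplasmic polyadenylation elements and acts in terminal red cell development. At chr11:31934713-31934760 it had 27, 55 and 22 reads in KO Ago and 14, 29 and 12 in WT Ago, or 894 ± 130 CPM in KO and 399 ± 61.2 CPM in WT (SD, n = 3 each). The lowest KO value, 802 CPM, was above the highest WT value, 463 CPM, and the change was 1.15 ± 0.30 (SE, edgeR adjusted p = 0.012). Leaving out KO Ago library 12 ended the call (adjusted p = 0.052), as did leaving out WT Ago library 1 (0.12). Of the genes with such peaks, Cpeb4 had 29, and 5 were tested. The peaks at 31934850, 31934291, 31934809 and 31934947 changed by 0.93, 0.83, 0.45 and 0.12 with no call. All 5 lie within 98.0 to 99.0% of the way along the gene.

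**Figure D4:**
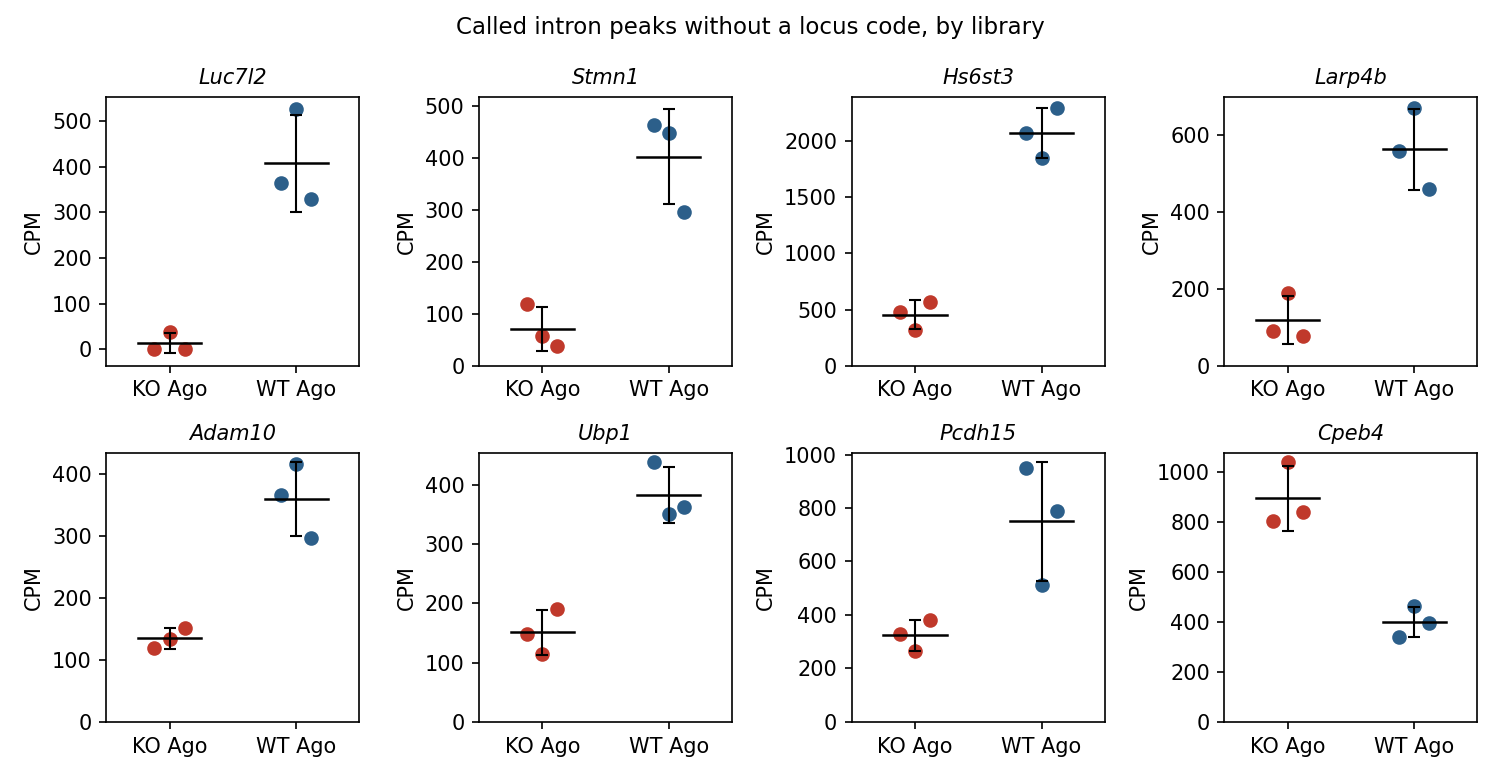
Scaled reads (CPM) of the 8 called intron peaks without a locus code in the 3 KO Ago and 3 WT Ago libraries; points are libraries, bars the mean and SD. In the first 7 genes every KO library is below every WT library, and in Cpeb4 every KO library is above. For Luc7l2, Stmn1, Larp4b, Adam10 and Ubp1 the filter on low counts had fixed that order.

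Peaks of 1 gene were compared with each other. This test, added after the data were seen, sets the KO over WT change of a peak against that of the other tested peaks of its gene. Some tested peaks carry a locus code, 6 of 12 in Cpeb4, 2 of 6 in Hs6st3 and 1 of 4 in Adam10, against 0 of 3 in Larp4b and Ubp1. The test therefore cannot separate a change at a site from a change of the whole transcript. Of the 51 uncoded intron peaks the test could use, 7 were called (13.7%, against 12.1% of all 1398 peaks). Larp4b at 9172366 stood at -1.79 log2 units relative to its gene (edgeR adjusted p = 0.0051), while the uncoded peaks at 9172618 and 9172715 changed by -0.23 ± 0.37 and 0.73 ± 0.37 with no call. Adam10 at 70780023 stood at -1.43 relative to its gene (adjusted p = 0.032) and Ubp1 at 113976405 at -1.26 (adjusted p = 0.044). In Ubp1, uncoded peaks on both sides, at 113976307 and 113977093, changed by 0.68 ± 0.36 and 0.18 ± 0.42 with no call. Cpeb4 at 31934713 was higher by 1.17 relative to the others of its 12 tested peaks (adjusted p = 0.021). The 4 uncoded Hs6st3 peaks spread most, with changes of -0.28, 1.02, -1.16 and -2.22, and those at 119644486 and 119649502 stood at 2.09 and -1.14 relative to their gene (adjusted p = 0.0002 and 0.029). The peak at 119644486 has 85 reads in all and also resembles a 3′UTR peak of Cd24a, with 90 reads and a width of 38 nt in place of 35 nt. Counts that may belong to Cd24a thus enter the Hs6st3 values relative to the gene. The remaining call was in Itgb1, an integrin chain outside the rule for named genes and chosen after its values were seen. That peak stood at 1.17 relative to its gene (adjusted p = 0.033), while its own change was -0.31 ± 0.35 with no call. The Luc7l2 and Stmn1 peaks were not in this test.

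**Figure D5:**
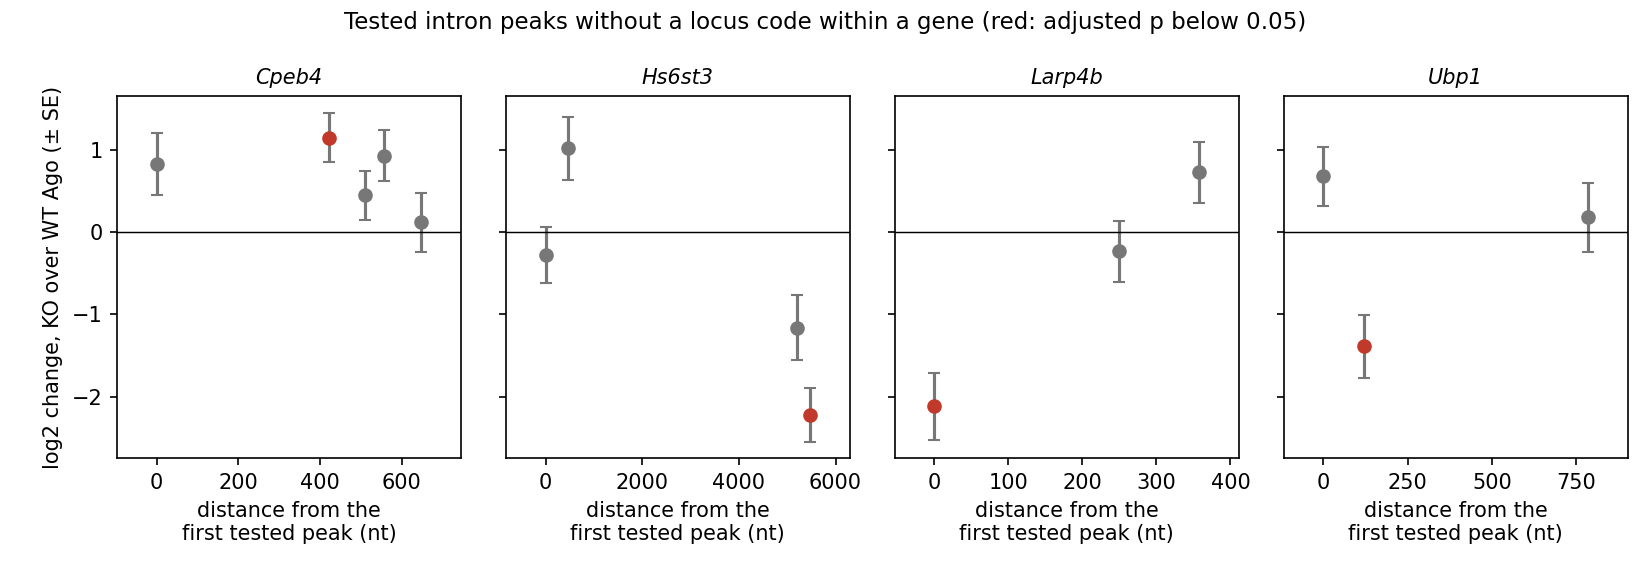
Log2 change of KO over WT Ago, with SE, of the tested intron peaks without a locus code in the 4 genes with 3 or more, by distance in nt from the first. The Larp4b peaks have values of -2.12, -0.23 and 0.73 in order of position, and the first pair of neighbours in Ubp1 have values of opposite sign (0.68 and -1.39).

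Codes for other microRNAs were next. A 7-mer or longer code for miR-16-5p stood in 306 of the peaks, for miR-122-5p of hepatocytes in 62 and for miR-21a-5p in 31. Of the 9 tested peaks with a miR-16-5p code none was called, and their median change was 0.25, against 0.29 for all 90. Of all 208 tested peaks with that code, in any class, 9 were lower and 1 was higher, so none of 9 is near that share. The peak of Nufip2, an RNA-binding protein, had 562 ± 125 CPM in KO and 467 ± 42.1 CPM in WT (SD, n = 3 each), and that of Topbp1, a replication checkpoint protein, 266 ± 0.992 and 137 ± 67.4 CPM, a change of 0.85 ± 0.43 (edgeR adjusted p = 0.23). Peaks of Rpl13a, Hmgb3, Sumo3 and Tfdp2 had values between -0.21 and 0.36, with no call. The coded peak of Rbm38 changed by 0.96 ± 0.38 (adjusted p = 0.10), and the Rbm38 peak at 173033649, without a 7-mer code, by 0.80 ± 0.31 (adjusted p = 0.095). The 1 tested peak with a miR-122-5p code was the Cpeb4 peak at 31934850, with 0.93 ± 0.31.

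Gene lists gave few tested peaks. Erythroid genes held 202 of the peaks in 30 genes, and 2 were tested with no call: Add2 changed by 0.61 ± 0.29 and Rhd, a red cell blood group protein, by -0.48 ± 0.40. Hepatocyte genes held 27 in 10 genes, and 3 were tested with no call: Alb changed by 0.51 ± 0.40 and -0.13 ± 0.49, and Afp, the fetal plasma protein, by 0.46 ± 0.45. Splicing regulators held 66, of which 3 were tested and 1, in Luc7l2, was lower, while Srsf1 changed by 0.12 ± 0.30 and Mbnl1, a regulator of alternative exons, by 0.20 ± 0.42. Ago pathway genes held 12, of which the 1 tested, in Tnrc6b, a scaffold of the silencing complex, changed by 0.37 ± 0.31; that gene is also the only tested host in the list of microRNA host genes, which held 49 of the peaks. Genes known as targets of either locus microRNA held 44 in 7 genes, of which Adam10 was lower and Klf3, a transcriptional repressor, changed by 0.12 ± 0.32. Macrophage genes and the list of noncoding RNA hosts held none of the peaks, and megakaryocyte, progenitor and granulocyte genes held 1, 8 and 1 with none tested. Among the peaks with the highest level not yet described, Gpx1, a glutathione peroxidase, had 2080 ± 380 CPM in KO Ago and 1360 ± 334 CPM in WT Ago (SD, n = 3 each), a change of 0.60 ± 0.32 (edgeR adjusted p = 0.25).

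In the authors' deposited table of differential peaks, 303 of the peaks are listed. Of these, 77 in the authors' deposited table were lower in KO (25.4%, against 35.7% of its 6651 peaks) and 6 were higher (1.98%, against 1.29%), at a false discovery rate below 0.05. Of the 7 peaks lower here, those of Stmn1 and Ubp1 are not listed there, and all 5 that are listed were lower in the authors' deposited table as well, with log2 changes of -4.61 for Luc7l2, -2.66 for Hs6st3, -2.56 for Larp4b, -1.79 for Adam10 and -1.57 for Pcdh15. Both analyses compare KO with WT Ago libraries of the same series, so this is no independent agreement.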

How the data were processed

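Raw read counts per peak, deposited by the authors, are reads that overlap a peak by at least 16 bases, and the deposited coverage signal is the maximum per library. Peak ends lie where coverage is 50% of the peak's maximum, per the deposited description. The submitters' processing notes name STAR, cutadapt, limma and bedtools and build mm10, without versions. Seed codes and the density over background are the authors' deposited scores, the IgG ratio is their deposited ratio of heights, and log2 fold changes, p-values and false discovery rates of the differential table are the authors' deposited values. Coordinates are mm10, as in the deposited peak names.

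From these, counts of all peaks were tested with edgeR 4.0.16 in R 4.3.3 (quasi-likelihood, TMM, filterByExpr with a minimum count of 10 and total of 15), on the 6 libraries of each comparison and on all 12 for the interaction, with Benjamini-Hochberg adjustment over all tested peaks at 0.05. CPM are TMM-scaled reads of tested peaks. The within-gene test was edgeR's diffSpliceDGE. The fit was checked on simulated counts. Shares were compared by exact permutation of libraries (scipy 1.17.1). Alternatives were DESeq2 1.42.0, limma-voom (limma 3.58.1), scaling, filters, member definitions and leaving out libraries.

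RefSeq matched the gene names of 7098 of the peaks, 97 did not match, and 63 had been turned into dates and are not printed. The peaks and gene lists were chosen with earlier results of these data known. Named peaks are those called in KO against WT Ago, the 10 tested with the highest CPM, up to 10 tested with a code of 12 or more (a 7-mer or longer) for another microRNA, the 5 with the smallest p each way in Ago against IgG per genotype, up to 4 per list, those over small RNA genes and those of genes with 3 or more tested peaks. Not all of them are printed with full values, and some are not reported here. Replicates are numbered as in the library titles.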

Additional observations from a re-analysis of the deposited data

How the results depend on the processing

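The lower share of these peaks in Ago than in IgG libraries held under every alternative run, with differences from -4.55 to -3.08 points. The difference of their log2 ratio to intron peaks with a locus code stayed between 0.45 and 0.57, and the KO minus WT difference of their Ago share between 0.55 and 1.11 points. The log2 ratio to 3′UTR peaks without a locus code, -0.09, had the other sign with only peaks tested in KO against WT Ago (0.06) and ranged from -0.29 to 0.10 with 1 library left out, above 0 without KO Ago 12 (0.10) or WT Ago 1 (0.06). The KO minus WT difference of the share of narrow peaks, 0.20 points, ran from -0.17 (without KO Ago 3) to 0.65 (without KO Ago 12) and was also below 0 without WT Ago 9 (-0.16). The cause was not tested.

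The count of peaks lower in KO, 7, was 4 with DESeq2, 5 without the peaks that share counts with another peak and 67 with no filter on low counts. The count higher in KO, 1, was 5 with library size alone, 2 with limma-voom, 7 with no filter and 0 among the peaks in the authors' deposited table. With 1 library left out, lower counts ran from 3 to 19 and higher counts from 0 to 4, as the filter passed 77 to 199 of the peaks in place of 90. They were 18 and 3 without KO Ago 3, 19 and 1 without KO Ago 13, 4 and 0 without WT Ago 1, 3 and 1 without WT Ago 9, and 16 and 4 without WT Ago 10. The Hs6st3, Luc7l2, Stmn1 and Larp4b calls held wherever they were tested, with Luc7l2 between -7.02 (without KO Ago 12) and -3.91. The Luc7l2, Stmn1 and Adam10 peaks were not tested without WT Ago 1 or without WT Ago 9, and Ubp1 was not tested without WT Ago 1. Those refits, which leave out a library where the peaks are high, are thus missing. The calls of Adam10, Ubp1, Pcdh15 and Cpeb4 were lost in 15 of the 73 refits of called peaks in all, and 11 of the 37 uncalled named peaks changed sign somewhere.

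For Ago against IgG in KO, the 14 lower were 9 with DESeq2 and 41 with library size alone. In WT, the 52 lower were 17 with DESeq2, and the 8 higher were 5 with library size alone. With 1 library left out, the KO counts ran from 1 to 63 lower and 1 to 31 higher, and the WT counts from 4 to 79 lower and 2 to 30 higher. Leaving out any Ago library gave the low ends (at most 5 lower and 2 higher, with 28 to 29 tested in KO and 17 in WT), and leaving out any IgG library the high ends (at least 57 lower and 19 higher, with 137 to 199 tested). Counts of 0 in KO against WT IgG did not change. No paired analysis was run, because the labels do not state whether any libraries are paired. Depth is a limit: 7105 of the 7195 peaks had too few reads to be tested between KO and WT Ago.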
